A study of Mus musculus with 10 samples.

Results

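The AP-1 and Egr genes, grouped here as immediate early genes, code for transcription factors. A search of the array annotation for Fos, Fosb, Fosl1, Fosl2, Jun, Junb, Jund, Egr1, Egr2 and Egr3 found 1 probe each for 8 of these 10 genes, among 5002 genes and unnamed probes on the array. Fosb and Fosl2 had no probe under their names. The probes were read on 10 arrays from the urinary bladders of female mice, each hybridized with the labelled cDNA of 1 pool of 8 bladders. The WT mice were C57BL/6J, and the PAR1-/- mice lack the thrombin receptor PAR1 (gene F2r) in a background enriched for C57BL/6J. Under anaesthesia the bladder was filled through a catheter with saline, with LPS (lipopolysaccharide of Escherichia coli 055:B5, an outer membrane component, 100 μg/ml) or with SP (substance P, a neuropeptide of sensory nerves). The labels give 10 μM SP for WT and 20 μM for PAR1-/-, whereas the methods give 10 μM for all. Bladders were taken 4 or 24 h after LPS or SP, and the saline array of each genotype is from 24 h only, so a change from saline at 4 h also spans a difference in time. The sources used here do not give the age of the mice. With 1 array per condition no ratio between 2 arrays carries a p-value, and the pools share no animals.

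Immediate early genes are switched on through proteins already present in the cell, without new protein having to be made first, and most are quickly switched off again. Growth factors, G protein-coupled receptors such as PAR1 and the SP receptor, and the LPS receptor all reach them through MAP kinases, which act on ternary complex factors such as Elk1 and Elk4 bound with SRF at the CArG box. Fos proteins pair with Jun proteins to form AP-1, which binds the letters TGANTCA, while Egr proteins bind GC-rich sites through zinc fingers. In tissue, Fos and Egr1 are also widely used as signs of recent stimulation of cells and nerves.

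The stretch of 250 bases before the start site is shown for Fos, the member that changed the most, and for Jun, its classical partner, whose probe stayed near background. The sequences are those of RefSeq on build GRCm38.p6, at chr12:85473640-85473889 on the plus strand for Fos and at chr4:95052223-95052472 on the minus strand for Jun. Capitals mark the core letters TGACG of the cAMP response element, the TATA box TATAAA and the jun1 site TGACATCA, each searched on both strands.
Fos: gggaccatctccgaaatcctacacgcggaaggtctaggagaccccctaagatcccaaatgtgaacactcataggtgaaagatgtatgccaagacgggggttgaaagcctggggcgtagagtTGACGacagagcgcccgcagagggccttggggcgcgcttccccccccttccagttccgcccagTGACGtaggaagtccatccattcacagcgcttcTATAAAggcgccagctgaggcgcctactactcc
Jun: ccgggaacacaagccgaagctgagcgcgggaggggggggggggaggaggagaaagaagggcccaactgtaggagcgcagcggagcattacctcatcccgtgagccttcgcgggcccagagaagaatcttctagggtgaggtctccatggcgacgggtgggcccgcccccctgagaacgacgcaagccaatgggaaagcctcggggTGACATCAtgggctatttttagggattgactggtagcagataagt

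The Fos stretch holds TGACG at 129 to 125 and at 66 to 62 bases before the start, and TATAAA at 33 to 28 bases before it. The Jun stretch holds TGACATCA at 45 to 38 bases before the start. Of 32851 such stretches in the RefSeq table, 17.8% hold TGACG, 12.4% hold TATAAA and 2.93% hold TGACATCA. Neither stretch holds the whole element TGACGTCA, of which TGACG is a part, the AP-1 motif TGANTCA, the Egr motif GCGNGGGCG or a CArG box. These were found in 1.55%, 6.75%, 4.7% and 1.47% of all stretches. The matches are letters in a window and do not show binding, and bases outside these 250 were not searched.

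The values are spot intensities in arbitrary units, recovered as the whole numbers behind the scores that the authors deposited. Each array has its own background threshold, which lay between 12.1 and 33, and a spot at or under it was taken as not above background. Fos was above background on all 10 arrays, as were 10.8% of all probes, and Egr3 on 9, which 17.5% of probes reached or passed. Egr1 was above background on 5 arrays, Fosl1 and Jun on 3 each, and Egr2 on 2. Junb and Jund were not above background on any array. Only Fos and Egr3 therefore carried a signal that could be followed through the conditions.

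**Figure D1:**
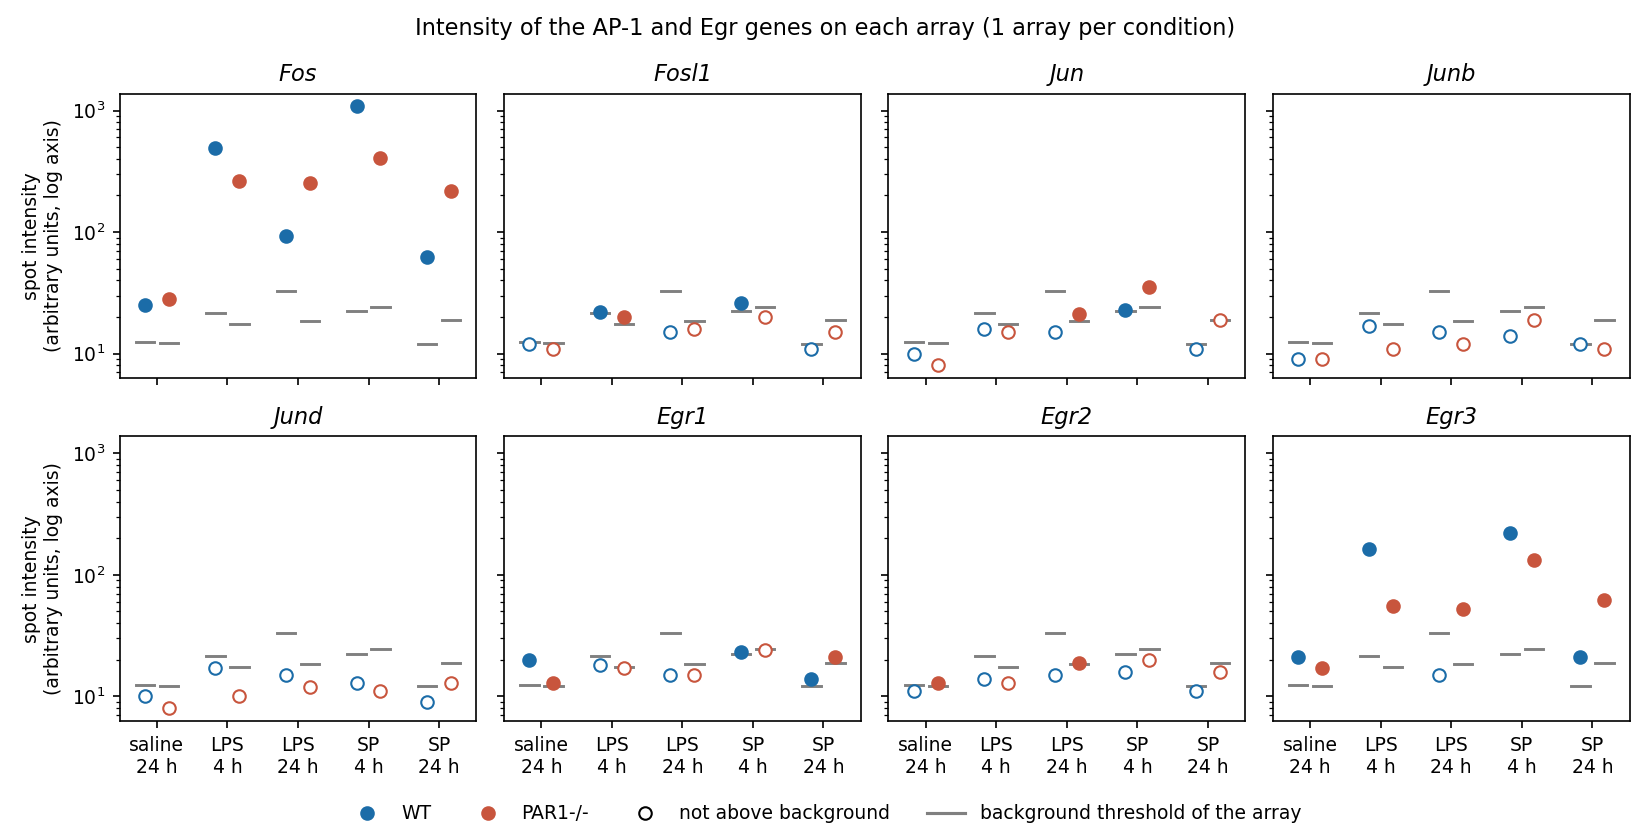
Spot intensity (arbitrary units, log axis) of the 8 genes on the 10 arrays, WT in blue and PAR1-/- in red, with 1 point per array and grey bars for the background threshold of that array. Fos and Egr3 stand clear of the thresholds with LPS and SP at 4 h, whereas Junb and Jund stay at or below them throughout.

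The arrays differed in brightness, and this bears on every ratio. Total intensity per array ran from 72815 to 304659, and the median unnormalized ratio of a probe to saline ran from 1.00 (SP at 24 h, WT) to 2.23 (SP at 4 h, PAR1-/-). Ratios are given after robust linear regression of each array on the mean of all arrays, and the unnormalized ratio, or the intensities behind it, stands beside the ratios to saline. After it the median ratio to saline, with dim values as measured, was 1.09 with LPS and 0.794 with SP at 4 h in WT. In PAR1-/- it was 0.817 and 0.603, so at 4 h the typical probe also lay lower in PAR1-/-. The part of this in the genotype results below was not tested. The WT array for 24 h of LPS reads 15 on 86.2% of probes and uses no value from there up to 29, so that its threshold of 33 rests on the 12 probes below 15. The normalized levels of the saline arrays differed with an SD of 0.489 on the log2 scale, or 1.4-fold, over 1168 probes, of which 9 differed by more than 3-fold. F2r itself was not above background on either saline array (intensity 10 in WT and 11 in PAR1-/-), read 195 with LPS at 4 h in WT, and read 51 against a threshold of 24.4 with SP at 4 h on the array labelled PAR1-/-. Since the part of F2r under this probe is not known here, it does not check the genotype labels.

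Markers of the bladder wall were unevenly above background. The 5 urothelial markers with a probe had 0 to 5 probes above background per array, with none on the 24 h LPS array of WT. Cdh1 and the keratin Krt13 were above it on 9 arrays each, the keratins Krt19 and Krt18 on 8 and 3, and the uroplakin Upk2 on 4. Of the 7 smooth muscle markers, 1 to 6 were above background. Acta2 was above it on 10 arrays, Smtn on 8, Myh11 and Tagln on 6 each, Cnn1 on 5, Actg2 on 4 and Tpm2 on 0. Of the 17 leukocyte markers, 2 to 7 were above background, and 7 of them were above it on no array: Cd3e, Cd68, Cd14, Laptm5, Ly6c1, Tpsb2 and S100a8. The neutrophil gene S100a9 was above it on 6 arrays, Itgb2 on 5, the common leukocyte gene Ptprc on 4 and Cxcr2 on 3. Kit, a receptor of mast cells and interstitial cells, was above it on all 10 and read 34, 577, 300, 1055 and 77 in WT (saline, LPS at 4 and 24 h, SP at 4 and 24 h) and 93, 436, 338, 953 and 766 in PAR1-/-. Of the mast cell genes, Cpa3 was above background on 10 arrays, Fcer1a on 2, Cma1 on 1 and Tpsb2 on 0. The median normalized fold of the leukocyte markers with a value was 0.989 with LPS and 0.649 with SP at 4 h in WT. The summed normalized level of the leukocyte markers was highest with LPS at 4 h in WT (1100) and between 707 and 974 on the other arrays. The urothelial sum was 81.1 to 171 and the smooth muscle sum 149 to 474, the highest in PAR1-/- saline. There 1 of the 7 smooth muscle probes was above background, and Acta2 alone read 112 of a summed intensity of 173. With LPS at 4 h in WT, Kit alone read 577 of a summed leukocyte intensity of 1193. These sums thus rest largely on single genes. The part of tissue composition in the results below was not tested, and in whole bladders fewer cells of a type cannot be told apart from less RNA per cell.

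Fos, the partner of Jun in AP-1 and the best known immediate early gene, was low with saline and high at 4 h. In WT its intensity was 25 with saline, 488 with LPS at 4 h and 92 at 24 h, and 1080 with SP at 4 h and 62 at 24 h. In PAR1-/- it was 28 with saline, 262 with LPS at 4 h and 254 at 24 h, and 407 with SP at 4 h and 218 at 24 h. Both saline arrays lay below all 8 challenged arrays, and by intensity the WT arrays at 24 h were the lowest of the challenged ones. After normalization the saline arrays were still the lowest, but SP at 4 h in PAR1-/- (normalized level 145) lay beside SP at 24 h in WT (147). The order by intensity is fixed by the deposited scores and does not depend on the recovery of the whole numbers.

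Over saline, Fos in WT was 9-fold with LPS at 4 h (unnormalized 19.5) and 8.43-fold with SP at 4 h (unnormalized 43.2). At 24 h the WT ratios were 2.13 with LPS (unnormalized 3.68) and 3.02 with SP (unnormalized 2.48). In PAR1-/- the ratios were 2.99 and 2.81 with LPS at 4 and 24 h (unnormalized 9.36 and 9.07), and 2.29 and 2.36 with SP (unnormalized 14.5 and 7.79). Fos was thus above saline in all 8 comparisons. With normalization 3 of them, all in WT, passed the criterion of 3-fold, with 3.02 just inside it and 2.99 just outside. Without normalization 7 did, all but SP at 24 h in WT. Among probes with a ratio or bound, Fos ranked 16 of 2343 with LPS and 8 of 1975 with SP at 4 h in WT, and between 17 and 87 from the top in the others. For Fos the intensities were the smallest whole numbers that give its scores. Of the 2 other sets within the tolerance the smaller reaches 2699, and over these sets the unnormalized ratio runs from 3.75 to 19.5 with LPS and from 5.34 to 43.2 with SP at 4 h in WT.

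Egr3, a zinc finger factor of the Egr family, gave the other clear signal. In WT its intensity was 21 with saline, 163 with LPS at 4 h, 220 with SP at 4 h and 21 again with SP at 24 h. After LPS at 24 h in WT it held the value 15, not above background. In PAR1-/- it was 17 with saline, 56 and 52 with LPS at 4 and 24 h, and 133 and 62 with SP. The WT arrays were high at 4 h only, and the PAR1-/- arrays lay between these and saline at both times.

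Over saline, Egr3 in WT was 3.86-fold with LPS at 4 h (unnormalized 7.76) and 2.66-fold with SP at 4 h (unnormalized 10.5). At 24 h in WT it was at most 0.812-fold with LPS and 0.996-fold with SP (unnormalized 1.00). In PAR1-/- it was 1.4 and 1.36 with LPS at 4 and 24 h, and 1.57 and 1.47 with SP, beside the 1.4-fold SD between the saline arrays, whereas the unnormalized ratios were 3.29, 3.06, 7.82 and 3.65. Over the 8 sets of whole numbers that give the scores of Egr3, the unnormalized ratio with SP at 4 h in WT ran from 2.01 to 15.2.

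**Figure D2:**
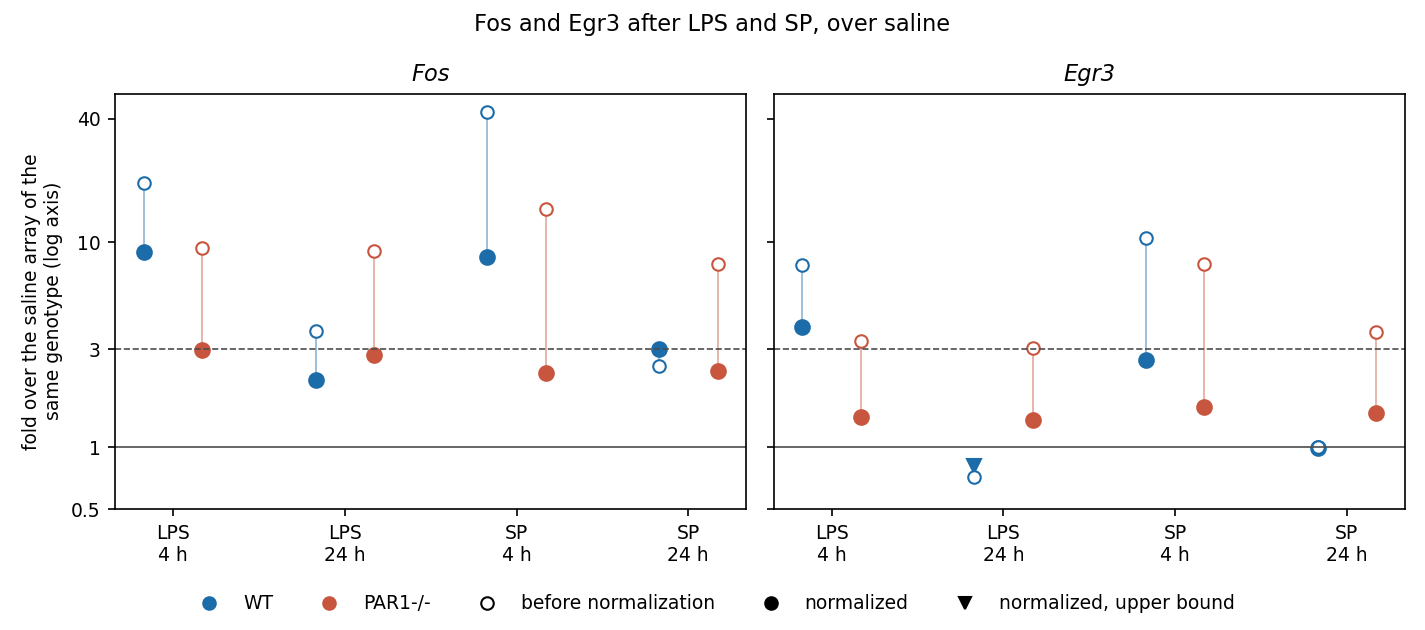
Fold of Fos and Egr3 over the saline array of the same genotype (log axis) with LPS and SP at 4 and 24 h, filled after normalization and open before it, with a solid line at 1 and a dashed line at 3. The WT points at 4 h are the highest normalized ones in each panel, and at 4 h normalization lowers the PAR1-/- points by more than the WT points. The WT Egr3 value with LPS at 24 h was not above background.

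Across all probes, the share with a ratio or lower bound above 3 was the background for these calls. After LPS at 4 h in WT, 2 of the 4 members with a value passed (Fos and Egr3), against 6.02% of all probes with a value. After SP at 4 h in WT, 1 of 3 passed (Fos), against 4.96%, and with SP at 24 h in WT 1 of 3 (Fos), against 0.908%. After LPS at 24 h in WT 0 of 3 passed, against 2.25%. In PAR1-/- 0 of 4 members passed in each comparison, where the share of all probes was 1.8% and 1.28% with LPS and 1.36% and 1.76% with SP at 4 and 24 h. Without normalization the same 2 genes passed in each of the 4 PAR1-/- comparisons and with SP at 4 h in WT, while at 24 h in WT Fos passed with LPS and not with SP, so these counts rest on the scaling. The members with a value are those bright enough to give one, so these counts do not describe all 8 genes.

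The Jun family and Fosl1 stayed near background. Jun read 10, 16, 15, 23 and 11 in WT (saline, LPS at 4 and 24 h, SP at 4 and 24 h) and 8, 15, 21, 35 and 19 in PAR1-/-, above background with SP at 4 h in both genotypes and with LPS at 24 h in PAR1-/-. None of its normalized values gave a ratio or bound. Junb, which like Jun pairs with Fos, read between 9 and 19, and Jund, often the steady member of the family, between 8 and 17. Fosl1, also called Fra-1 and itself a target of AP-1, read 12 and 11 with saline and 22, 20 and 26 on the 3 arrays where it was above background, LPS at 4 h in WT and PAR1-/- and SP at 4 h in WT. Its bound with LPS at 4 h in WT was at least 1.06-fold. For these genes a change that kept them near background was not detectable on these arrays. Their readings, and those of Egr1 and Egr2, are the smallest whole numbers that give the scores. Between 4 (Jun) and 933 (Junb) other sets fit too, with a highest value from 289 (Jund) up, and under such sets the highest readings would not lie near background, with unnormalized folds of up to 12.9 for Jund with LPS at 4 h in WT and 146 for Junb with SP at 4 h in PAR1-/-. Squaring every reading of a probe leaves its scores the same, so the squares are among these sets. In the squares the saline readings are raised as well.

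No rise was called in Egr1 or Egr2. Egr1, the most studied Egr factor, read 20 and 13 with saline in WT and PAR1-/-, and between 14 and 24 on the challenged arrays. Its normalized ratio with SP at 4 h in WT was 0.403, but its unnormalized ratio was 1.15, so the direction depends on the normalization. Egr2, known as Krox20 and needed for myelination, read 11 to 20 over the 10 arrays.

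Spread over arrays was tested with limma, which took the difference between genotypes within conditions as the error. It drew the error of each probe toward that shared by all tested probes. The fit took in the 2063 probes that passed background on 4 or more arrays, among them Fos, Egr1 and Egr3, and 6 effects were looked at with Benjamini-Hochberg adjustment over all probes. The mean of both 4 h conditions minus saline was 2.26 ± 0.43 (SE, log2) for Fos, with a limma adjusted p of 0.056, and 1.12 ± 0.41 for Egr3, with an adjusted p of 0.186. Neither passed, where 0.0969% of all probes did. Fos is brighter at 4 h than in saline on all 4 pairs of arrays, and its estimate kept its sign in each of 17 alternatives and passed in 12 of them. Without normalization, however, 1504 of 2063 probes passed for this effect, on the deposited scores 1946, and without the filter 246 of 4926. A pass without normalization or on the scores was thus shared by most probes. The mean of all challenged conditions minus saline was 1.80 ± 0.39 for Fos (adjusted p = 0.125) and 0.65 ± 0.38 for Egr3 (adjusted p = 0.541), again beside 0.0969% of all probes called. Egr1 had an estimate of -0.93 ± 0.27 at 4 h (adjusted p = 0.126), which turned to 0.41 without normalization.

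The difference between 24 and 4 h was -0.90 ± 0.35 for Fos and -0.95 ± 0.34 for Egr3, both with a limma adjusted p of 0.419. By limma 0 of 2063 probes passed for time (0%), with 238 at an unadjusted p under 0.05. An exact two-sided permutation test of the 4 arrays at 4 h against the 4 at 24 h gave p = 0.114 for Fos and p = 0.0571 for Egr3, where the smallest p that 4 against 4 can give is 0.0286. Fos at 4 h over 24 h was 4.22-fold for LPS and 2.79-fold for SP in WT (unnormalized 5.30 and 17.4), and 1.07 and 0.971 in PAR1-/- (unnormalized 1.03 and 1.87, so that for SP the direction turns with the normalization). Egr3 was at least 4.76-fold for LPS and 2.67-fold for SP in WT (unnormalized 10.9 and 10.5), and 1.03 and 1.07 in PAR1-/- (unnormalized 1.08 and 2.15). The 10.9 is over the WT reading of 15 with LPS at 24 h, which was not above background, and is no measured ratio. On both scales each ratio in WT was above the one in PAR1-/- for the same agent. No difference between LPS and SP was called, with a limma estimate of LPS minus SP of 0.06 ± 0.35 for Fos (adjusted p = 0.965) and -0.01 ± 0.34 for Egr3 (adjusted p = 0.993). Across all probes 0 passed for this effect (0%), with 158 at an unadjusted p under 0.05.

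The genotypes were compared within each condition. Fos in PAR1-/- over WT was 1.30 with saline, 0.433 with LPS and 0.354 with SP at 4 h, and 1.71 and 1.02 at 24 h. Unnormalized it was 1.12, 0.537, 0.377, 2.76 and 3.52. Egr3 was 0.858 with saline, 0.310 with LPS and 0.507 with SP at 4 h, and at least 1.43 and 1.27 at 24 h. Unnormalized it was 0.81, 0.344, 0.605, 3.47 and 2.95, where the 3.47 is over a WT reading of 15 that was not above background. Both genes were lower in PAR1-/- on the 2 pairs of arrays at 4 h and not lower on the 2 challenged pairs at 24 h, also without normalization. Averaged over the 5 conditions the genotype effect was -0.31 ± 0.32 for Fos (limma adjusted p = 0.661) and -0.41 ± 0.30 for Egr3 (adjusted p = 0.543), and 0 of 2063 probes passed (0%), with 255 at an unadjusted p under 0.05.

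**Figure D3:**
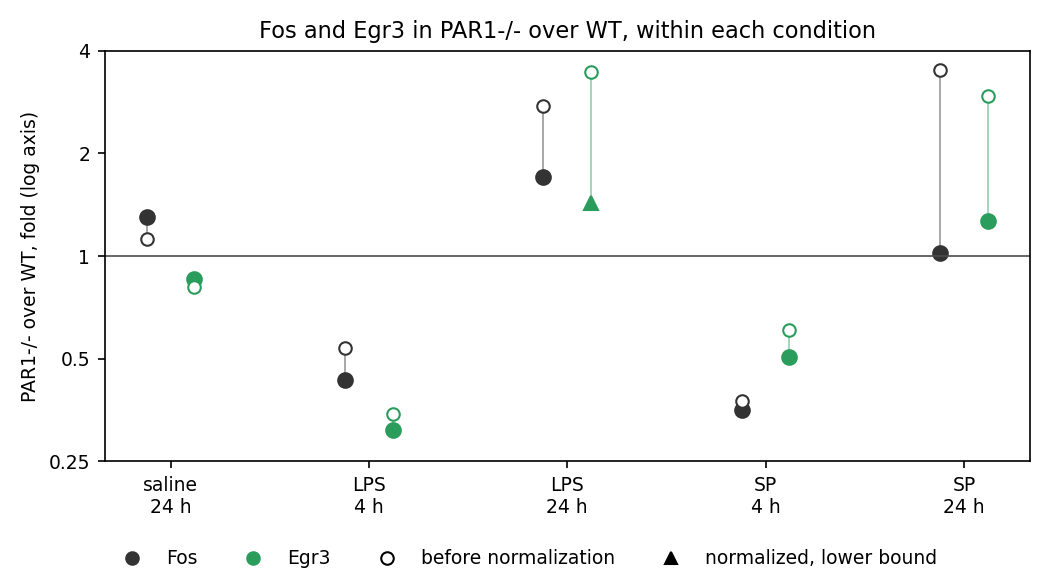
Fold of Fos (black) and Egr3 (green) in PAR1-/- over WT within each condition (log axis), filled after normalization and open before it, with a line at 1. The points with LPS and SP at 4 h lie below 1 and those of LPS and SP at 24 h above it, each from 1 pair of arrays. The open Egr3 point with LPS at 24 h rests on a WT value not above background.

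The test of that difference adds to the fit a term for the genotype difference at 4 h against the other conditions. It was -1.75 ± 0.46 (log2) for Fos, with a limma adjusted p of 0.0106, and -1.55 ± 0.46 for Egr3, with an adjusted p of 0.031. In this fit 4.94% of all probes passed, 17 upward and 85 downward, so 2 of 3 members passed beside about 1 probe in 20. The calls were not stable. The estimates for Fos and Egr3 stayed below 0 in all 17 alternatives, but passed in 5 for Fos and in 3 for Egr3. On intensities they ran from -2.30 to -1.56 for Fos and from -1.98 to -1.19 for Egr3. On the deposited scores, which are standardized per probe and do not compare in size, they were -0.43 and -0.50. Leaving out the array of either genotype in a condition gave the same result for this term, so such alternatives count in pairs. Both calls were lost without normalization (adjusted p = 0.125 for Fos and 0.479 for Egr3) and without either LPS array at 24 h (0.169 and 0.217), and without those arrays 0 probes passed at all. For Fos they were also lost without any array at 4 h, with an adjusted p of up to 0.329, and for Egr3 without any of the 8 challenged arrays, where it reached up to 0.607. SP was labelled at a higher dose in PAR1-/-, so for SP dose and genotype cannot be told apart.

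**Figure D4:**
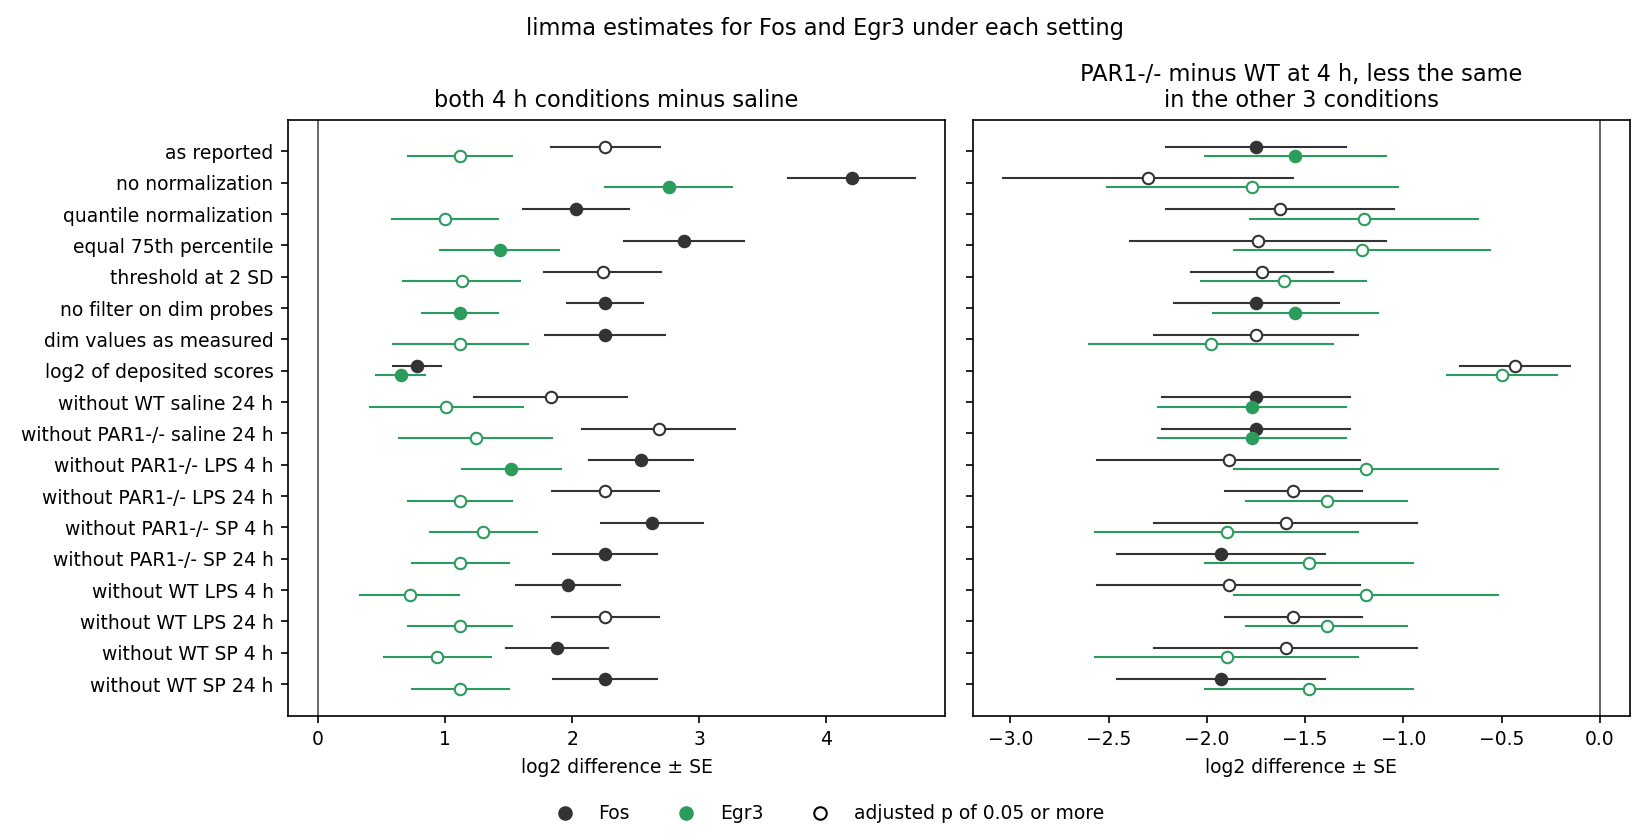
limma estimates (log2 difference ± SE) for Fos (black) and Egr3 (green) as reported and under 17 alternative settings, filled where the adjusted p was under 0.05. Estimates on the deposited scores are in standardized units, and their size does not compare with the others. In both panels the estimates of Fos and Egr3 keep their side of 0, the 4 h change of Fos is filled in most settings, and the genotype term in the right panel is mostly open.

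The pathway around the members was read from 8 lists, of bZIP partners, Egr relatives, SRF and ternary complex factors, MAP kinases, their phosphatases, other immediate early genes, and targets of AP-1 and of Egr, with 152 genes on the array. In WT at 4 h, 7 of these genes were above 3-fold with LPS and 6 with SP, or 8.75% and 8.70% of probes with a value, beside 6.02% and 4.96% of all probes. At 24 h in WT there were 2 with LPS and 0 with SP, beside 2.25% and 0.908% of all probes. In PAR1-/- there was 1 with LPS at 4 h and 0 in the other comparisons, beside 1.8% and 1.28% of all probes with LPS and 1.36% and 1.76% with SP. Without normalization the PAR1-/- counts were 19 and 14 with LPS and 49 and 22 with SP at 4 and 24 h. The share of all probes without normalization is not given beside them. The median fold of the lists was 1.20 with LPS and 1.06 with SP at 4 h in WT, beside 1.12 and 0.996 over all probes. The limma fit called 0 of 68 pathway probes for 4 h minus saline and 0 for time.

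Upstream, Elk4, a ternary complex factor that binds with SRF, went from 12 with saline to 587 with LPS and 249 with SP at 4 h in WT, at least 25.5-fold and at least 5.63-fold, and was back at 12 with SP at 24 h. In PAR1-/- Elk4 went from 13 to 111 with LPS at 4 h, or 3.64-fold, and read 75 at 24 h, with 140 and 51 with SP. Elk1, its relative, was not above background on any array (9 to 19), and neither was Dusp1, the phosphatase that shuts off MAP kinases (8 to 19). The kinase Mapk8 (JNK1) was above background on 1 array, SP at 4 h in WT, at 39. Mapk14 (p38 alpha) read 10 to 46 and was above background on 5. Nab1 and Nab2, which repress Egr factors, read 10 to 34 and 8 to 39, each above background on 5 arrays, with bounds of at least 1.61-fold and 1.20-fold with LPS at 4 h in WT. Srf and Mapk3 had no probe under their names.

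Among other immediate early genes, Ccn1 (Cyr61), a secreted matrix protein, was 6.10-fold over saline with LPS and 3.78-fold with SP at 4 h in WT, with intensities of 19 with saline, 230, and 287. Irf1, an interferon response factor, was 3.62-fold and 3.36-fold (unnormalized 7.05 and 13.2). The cytokine Lif read 7 with saline and 1495 with SP at 4 h, at least 26.4-fold, and 128 with LPS at 24 h, at least 7.38-fold. Among AP-1 targets, the integrin Itga5 went from 8 to 309 with LPS at 4 h in WT, at least 13.7-fold, and was above background on no other array. Mmp12, the macrophage elastase, was 3.51-fold with LPS and 3.71-fold with SP at 4 h in WT (unnormalized 6.40 and 13.3). Of the bZIP relatives, Nfe2l3 was at least 3.69-fold with LPS at 4 h in WT (intensity 10 with saline and 80). Of the Egr targets, Musk was at least 3.09-fold with SP at 4 h in WT (11 with saline and 124), and Acta2, smooth muscle actin, was 4.08-fold and 3.71-fold with LPS at 4 and 24 h in WT (unnormalized 8.43 and 5.91), where WT saline read 23 and PAR1-/- saline 112. In all 4 PAR1-/- comparisons normalized Acta2 lay more than 3-fold below saline, although its intensities there were 152, 131, 29 and 151, so that without normalization it was lower only with SP at 4 h. Intensities of the other genes in PAR1-/- are given for saline, LPS at 4 h and SP at 4 h. Ccn1 read 18, 68 and 104, Irf1 26, 34 and 62, Lif 9, 22 and 31, and Itga5 9, 12 and 12. Mmp12 read 15, 85 and 175, Nfe2l3 8, 17 and 22, and Musk 12, 57 and 75. After normalization none of them passed 3-fold there. For the genotype difference at 4 h, 4 of 68 pathway probes passed, all downward: Elk4 (-2.58 ± 0.47, limma adjusted p = 0.000106), Ccn1 (-2.29 ± 0.46, 0.00045), Irf1 (-2.15 ± 0.47, 0.0013) and Acta2 (-1.92 ± 0.54, 0.0186). That is 5.88%, beside 4.94% of all probes, in the fit whose calls depend on the settings above.

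Over the 10 arrays the normalized log2 levels most like Fos, among 1907 named probes that passed background on 4 or more arrays, belonged to Dlx2 (Pearson r = 0.939), a homeobox factor, Epx (0.933), the eosinophil peroxidase, and Lcat (0.924), which esterifies cholesterol. Most like Egr3 were Ccn1 (0.966), Mbd2 (0.954), a reader of methylated DNA, and Calcr (0.941), the calcitonin receptor. Fos and Egr3 themselves gave r = 0.85. All points share the same arrays and their brightness, so these are descriptions of likeness.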

How the data were processed

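Total RNA of pooled bladders was labelled with 33P and hybridized to 1-colour Clontech Atlas mouse plastic 5K arrays, and the authors quantified spots with AtlasImage 2.7. The values they deposited are scores: the log2 of a probe's scores has mean 0 and SD 0.333 over the 10 arrays, a standardization read from the values and not stated. The smallest whole numbers up to 3000 that give the scores were taken as intensities where fewer than 0.01 chance matches were expected, which left out 104 of 5030 probes. The tolerance and the chance formula were changed after a first version had not recovered the members. On simulated data 98.2% of probes with a highest value of 500 to 2000 were recovered, 99.8% of these correctly. Whether the smallest whole numbers are the true ones for the measured probes was not tested. For the members, from 2 (Fos) to 933 (Junb) other sets gave the scores within the tolerance.

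Groups come from the design text of the series and the treatment protocols. The members, lists and tests were chosen with earlier results of these data known. Background was the mode of each array plus 3 SD of the values below it. Arrays were scaled by robust linear regression (MASS 7.3.60.0.1) over 534 probes above background on all arrays. Values at or under background were set to the threshold, giving bounds. The limma 3.58.1 fit was additive in condition and genotype (4 residual degrees of freedom, 3 with the interaction). For the genotype term at 4 h the SE was nearly the same in Fos, Egr1 and Egr3 (0.461, 0.459 and 0.464). The p-values of that term therefore rest mostly on the error shared over probes and little on the spread of each gene. In simulations with a log2 change of 2 the fit called 91% of changed probes for 4 h minus saline, 97.5% for time and 60.5% for the genotype term at 4 h. With a log2 change of 1 it called 40.5%, 59.5% and 0%. The simulations changed 200 of 2063 probes, more than were called in the data for these effects. The precision of a single array is unknown, beyond the spread between saline arrays. Genes were named from the annotation table of the platform, with 4633 probes given 1 gene, 5 several and 392 none. Named genes are all members, F2r, 9 pathway genes set by name where they have a probe, up to 4 genes above 3-fold per list and comparison, and the 3 probes most like Fos and Egr3. All urothelial and smooth muscle markers with a probe are named, whereas the leukocyte markers named were picked after their values were seen.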

Additional observations from a re-analysis of the deposited data

Results flagged for a closer look

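The genotype difference at 4 h against the other conditions was past the threshold for Fos (-1.75 on the log2 scale, limma adjusted p = 0.0106) and for Egr3 (-1.55, adjusted p = 0.031), which is why both are listed: the term tests the difference between genotypes at 4 h against that with saline and at 24 h, and not the 4 h change from saline alone. Of 17 alternatives, 12 lost the call for Fos and 14 that for Egr3, while none turned its direction. The alternatives with 1 array left out come in pairs of equal results for this term, so these tallies hold fewer distinct checks. Each condition and genotype has 1 array, and the cause was not tested.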

How the results depend on the processing

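No paired analysis was possible because every group has a single array, made from separate mice, and the limma fit matches arrays by condition only. Fos and Egr3 ratios at 4 h depended on normalization. Without it Fos was 19.5 (LPS) and 43.2 (SP) in WT and 9.36 and 14.5 in PAR1-/-, and Egr3 was 7.76 and 10.5 in WT and 3.29 and 7.82 in PAR1-/-. At equal 75th percentiles Fos was 15.5 (SP, WT) and 4.85 and 4.24 (LPS and SP, PAR1-/-), and Egr3 after SP was 3.76 in WT and 2.28 in PAR1-/-. Pathway genes above 3-fold without normalization numbered 17 and 4 after LPS at 4 and 24 h and 35 after SP at 4 h in WT, and 19, 14, 49 and 22 in PAR1-/-. At equal 75th percentiles they numbered 4 (LPS at 24 h) and 11 (SP at 4 h) in WT, and 1, 3 and 2 (LPS at 24 h, SP at 4 and 24 h) in PAR1-/-. With the mean of both saline arrays there was 1 after LPS at 24 h in WT and 1 after SP at 24 h in PAR1-/-, where quantile normalization also gave 1. At 2-fold they numbered 14 (LPS at 4 h) and 2 (SP at 24 h) in WT, and 4, 2, 2 and 3 in PAR1-/-. The share of all probes under these settings is not given here.

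In limma, the 4 h change of Fos passed without normalization (4.2), under quantile normalization (2.03), at equal 75th percentiles (2.88), without the filter (2.26), with dim values as measured (2.26) and on the deposited scores (0.78), and ran from 1.83 to 2.68 when 1 array was left out. The challenge effect of Fos passed under these settings at 3.27, 1.64, 2.34, 1.80 (without the filter) and 0.61 (scores), and ran from 1.38 to 2.23 with 1 array left out. Time passed for Fos without normalization (-1.87) and without the filter (-0.90), and for Egr3 without normalization (-1.73), without the filter (-0.95) and on the scores (-0.47), with -1.35 to -0.55 when 1 array was left out. For Egr3 the 4 h change passed at 2.76 without normalization, 1.43 at equal 75th percentiles, 1.12 without the filter and 0.65 on the scores, with 0.72 to 1.52 when 1 array was left out, and challenge passed at 1.90 and 0.41 without normalization and on the scores. Egr1 at 4 h passed without the filter (-0.93), and its estimate was above 0 without normalization (0.41) and on the scores (0.36). The genotype term at 4 h failed for Fos at -2.30 (no normalization), -1.63 (quantile), -1.74 (75th percentile), -1.72 (threshold at 2 SD), -1.75 (as measured) and -0.43 (scores), and for Egr3 at -1.77, -1.20, -1.21, -1.61, -1.98 and -0.50, with ranges of -1.93 to -1.56 and -1.90 to -1.19 when 1 array was left out. Estimates on the scores are in units standardized per probe and do not compare in size with the others. The cause of these moves was not tested.

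The number of probes called moved with the settings too. The 102 of the genotype term became 0 to 147, the 2 of 4 h minus saline 0 to 1946 and the 2 of challenge 0 to 1624, while time, genotype and stimulus, at 0 each, reached up to 366, 157 and 65. For 4 h minus saline and for challenge the highest counts came from the deposited scores, followed by 1504 and 1186 without normalization. With 1 array per condition and most members near background, changes in 5 of the 8 genes were not tested by limma, and those of Egr1 rest on 5 arrays above background.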
